A study of Mus musculus with 9 samples.

Results

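Glutamate, the main excitatory transmitter of the brain, acts on ion channels and on G protein-coupled receptors. Kainate receptors are cation channels assembled from subunits that bind kainate with lower affinity and form channels alone (GluK1 to GluK3, genes Grik1 to Grik3) and subunits that bind it with higher affinity and need a lower-affinity partner (GluK4 and GluK5, genes Grik4 and Grik5). NMDA receptors are calcium-permeable channels that need the subunit GluN1 (Grin1) beside GluN2 or GluN3 subunits, and the usual forms bind glycine or D-serine as well as glutamate. Of the metabotropic receptors, mGluR5 (Grm5) signals through Gq and phospholipase C, and mGluR3 (Grm3) lowers cyclic AMP through Gi. mGluR5 is known from neural progenitors and immature astrocytes, and mGluR3 from astrocytes.

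The 10 genes Grik1, Grik2, Grik3, Grik4, Grik5, Grin1, Grin2a, Grin2b, Grm3 and Grm5 were taken by their symbols among the 23420 genes listed, and all 10 were found. Levels are in TPM, read numbers divided by gene length and scaled to the same total in every library. Cells came from the hippocampus of wild-type C57BL/6J mice, 2 days old, and were expanded as neural stem cells, then moved to medium lacking bFGF and EGF, in which such cells differentiate. In that medium one group received 3 µM NAT, which the labels call only a new small molecule compound, another received 3 µM P7C3-A20, an aminopropyl carbazole known for favouring the survival of newborn neurons, and the third received the vehicle DMSO. Each group had 3 libraries, which the labels call biological replicates without naming separate cultures or mice, and every p-value below therefore rests on the spread among libraries that may share a source. Each compound was compared with the vehicle, and NAT with P7C3-A20 at their equal dose.

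Whole reads could be recovered from the steps of the TPM values, and came to 12994081 to 13803959 per NAT library, 15885313 to 17217584 per P7C3-A20 library and 12028821 to 14109316 per DMSO library. Markers of neural stem cells were present, 10 of 10 at 1 TPM or more in at least 3 libraries, with Fabp7 at 11410 ± 300 TPM in NAT, 10930 ± 300 TPM in P7C3-A20 and 12200 ± 292 TPM in DMSO libraries (SD, n = 3 each), and markers of astrocytes (10 of 10), neurons (12 of 14) and the oligodendrocyte lineage (11 of 12) reached that level too. Microglial markers reached it in 2 of 11 cases, with no read for Trem2, Cx3cr1, Ctss or C1qc, and vascular, meningeal and blood markers in 1 of 10, with no read for Cldn5, Lum, Hba-a1 or Hbb-b1. Reaching 1 TPM does not make the lists alike in level. In DMSO libraries the 10 astrocyte markers summed to 6521 to 6907 TPM and the 12 oligodendrocyte lineage markers to 3673 to 3832 TPM. The 14 neuronal markers summed to 985.9 to 1018 TPM, most of it Map2 at 640.4 TPM. In such bulk libraries, fewer cells of a type and less RNA per cell cannot be told apart. Levels also followed the GC content of transcripts differently between libraries, with slopes of -0.062, 0.007 and -0.0303 (log2 per 10 percentage points of GC) in NAT replicates 1, 2 and 3, 0.0159, 0.0366 and 0.1139 in the P7C3-A20 replicates and -0.0523, -0.0224 and -0.0066 in the DMSO replicates.

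The receptors covered a wide range of levels. Grm5 was the most abundant, with a mean of 168.5 TPM over the 9 libraries, more than 91.8% of the 13839 genes tested, followed by Grik5 at 109.4 TPM and Grm3 at 69.9 TPM. Grik2 averaged 29.4 TPM, Grik3 17.4 TPM and Grik4 15.4 TPM, while Grik1 and Grin1 stood at 3.91 and 3.01 TPM. The GluN2 subunit genes Grin2b and Grin2a were near absence, at 0.446 and 0.192 TPM. The order was the same in each group's means, and neighbouring genes had ranges that did not overlap within any group, except Grik3 and Grik4, which overlapped in the NAT and the P7C3-A20 libraries, and Grik1 and Grin1, which overlapped in the P7C3-A20 libraries. TPM rest on the gene lengths the authors used. Relative to Grin1, the length behind the Grin2b values was 0.887 and that behind Grin2a 1.07, against 5.63 and 3.42 for the longest GENCODE transcripts. For Grik2 it was 1.15 against 2.205, for Grik4 0.825 against 1.38 and for Grik3 2.09 against 2.10. The level of Grin2b, Grin2a, Grik2 and Grik4 relative to the others, and with it the order above, therefore depends on the length chosen.

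**Figure D1:**
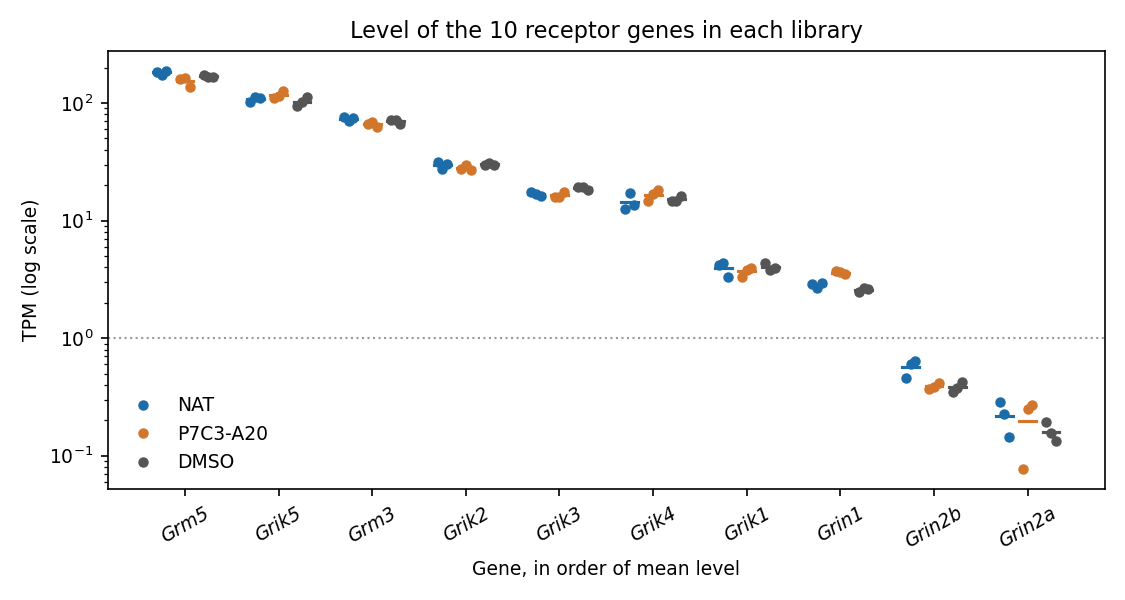
TPM on a log scale for the 10 receptor genes, ordered by mean level, with 1 point per library and a bar at the mean of each group (n = 3). Grm5 lies at 137.0 to 188.6 TPM, and Grin2a and Grin2b lie below the dotted line at 1 TPM in all 9.

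Promoter sequences of 6 of the 10 genes were matched by symbol in RefSeq (build GRCm38.p6), from 250 bases before to 50 bases after the transcript start. No entry was matched for Grik1, Grin2a, Grin2b and Grm5. The promoters chosen are that of Grik5, the most abundant of the matched genes, that of Grin1, the least abundant of them, and that of Grik3, which had lower values in both compound groups than in DMSO. They lie at chr7:25072320-25072619 (minus strand), chr2:25319138-25319437 (minus strand) and chr4:125490446-125490745 (plus strand), and each is written 5′ to 3′ with capitals at the GC box GGGCGG on either strand, the motif known to bind Sp1.
Grik5 promoter: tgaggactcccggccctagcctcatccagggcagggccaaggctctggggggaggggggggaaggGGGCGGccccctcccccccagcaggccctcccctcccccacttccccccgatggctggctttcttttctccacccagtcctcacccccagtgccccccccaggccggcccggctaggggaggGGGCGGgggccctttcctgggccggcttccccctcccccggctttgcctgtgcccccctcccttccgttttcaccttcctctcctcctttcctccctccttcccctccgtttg
Grin1 promoter: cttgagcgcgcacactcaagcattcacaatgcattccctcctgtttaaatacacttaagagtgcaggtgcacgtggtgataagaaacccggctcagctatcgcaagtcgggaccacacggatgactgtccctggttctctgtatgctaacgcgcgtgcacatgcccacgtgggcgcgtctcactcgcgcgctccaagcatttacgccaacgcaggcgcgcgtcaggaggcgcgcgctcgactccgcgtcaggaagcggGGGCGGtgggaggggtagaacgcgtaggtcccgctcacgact
Grik3 promoter: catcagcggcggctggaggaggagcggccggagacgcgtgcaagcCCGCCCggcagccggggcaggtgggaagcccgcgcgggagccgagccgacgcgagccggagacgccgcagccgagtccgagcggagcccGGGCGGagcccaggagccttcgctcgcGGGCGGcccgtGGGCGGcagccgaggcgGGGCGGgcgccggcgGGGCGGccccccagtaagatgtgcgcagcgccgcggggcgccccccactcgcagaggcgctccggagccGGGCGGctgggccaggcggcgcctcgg
The Grik3 sequence held 7 GC boxes and 50 CpG dinucleotides, Grik5 2 boxes and 10 CpG, and Grin1 1 box and 33 CpG. At least 1 box was present in 35.7% of the 32851 promoters in the table, whose median CpG count was 7. Of the other matched promoters, Grm3 and Grik4 held 2 boxes each and Grik2 none. A match describes the letters of the window and not a bound site.

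Differences between groups were tested with limma on log2(TPM + 1), adjusted by Benjamini and Hochberg over all 13839 genes with at least 1 TPM in at least 3 libraries. Of the 10 members 8 were tested, and Grin2a and Grin2b, under 1 TPM in every library, were not. No member passed an adjusted p of 0.05 in any of the 3 comparisons. Of all genes, 0.0289% passed for NAT against DMSO, all of them lower. With P7C3-A20 against DMSO 0.0217% passed, 0.00723% higher and 0.0145% lower, and with the compounds against each other 0% did. Voom, limma's method for counts, on the recovered reads called Grik3 for P7C3-A20 against DMSO, Grm5 between the compounds, and no member for NAT against DMSO. Over all genes voom called 1.79% for P7C3-A20 against DMSO, 2.33% between the compounds and 0.202% for NAT against DMSO.

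At an unadjusted limma p under 0.05, NAT against DMSO had 0 members higher and 1 lower, Grik3, where 8.67% of all genes were higher and 3% lower (11.7% in all). P7C3-A20 against DMSO had 2 members higher, Grin1 and Grik5, and 2 lower, Grik3 and Grm5, where 10.7% of all genes were higher and 5.12% lower (15.9% in all). NAT against P7C3-A20 had 2 members higher, Grm5 and Grm3, and 1 lower, Grin1, where 9.92% of all genes were higher and 5.89% lower (15.8% in all). Groups did not overlap for 1 member higher and 1 lower with NAT against DMSO (14.1% and 4.89% of all genes), for 1 higher and 3 lower with P7C3-A20 against DMSO (13.1% and 7.49%), and for 2 higher and 1 lower between the compounds (13.3% and 8.35%). A fold change on the log2(TPM + 1) scale understates the change of genes near 1 TPM, such as Grin1. The comparisons share libraries with each other, so their values are set side by side and not counted as separate evidence.

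**Figure D2:**
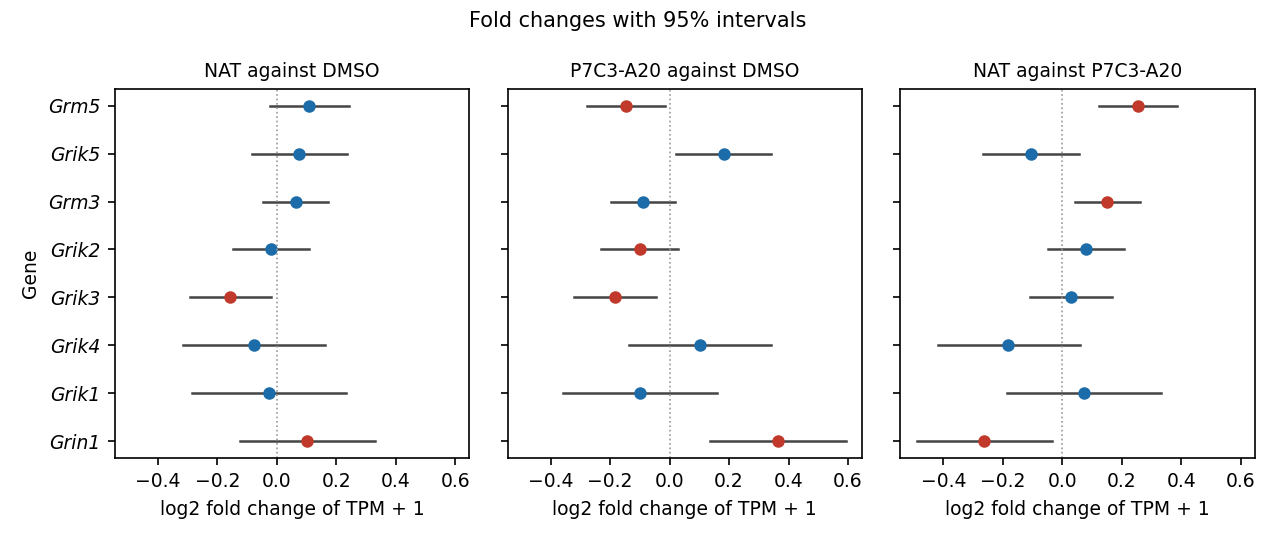
Log2 fold changes of TPM + 1 for the 8 tested genes (points) with limma's 95% intervals (lines), in the 3 comparisons. Red points mark genes whose compared groups do not overlap, such as Grik3 for both compounds against DMSO; blue points mark groups that overlap.

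Among the metabotropic receptors, Grm5 had 185.5, 174.2 and 188.6 TPM in NAT libraries, 160.2, 162.9 and 137.0 TPM in P7C3-A20 libraries and 174.5, 165.8 and 167.8 TPM in DMSO libraries. All NAT libraries lay above all P7C3-A20 libraries, all P7C3-A20 libraries lay below all DMSO libraries, and NAT and DMSO overlapped. NAT against P7C3-A20 gave a log2 fold change of 0.26 ± 0.06 (SE, interval 0.12 to 0.39, limma adjusted p = 0.171), rank 114 of all genes by p. Against DMSO the values were 0.11 ± 0.06 for NAT (limma adjusted p = 0.494) and -0.15 ± 0.06 for P7C3-A20 (limma adjusted p = 0.274). With the GC trend removed the P7C3-A20 value was -0.10 (limma adjusted p = 0.440), and without P7C3-A20 replicate 3 it was -0.07 (limma adjusted p = 0.521). The adjusted p of that value ranged from 0.0594 to 0.559 over 16 alternatives. In mean TPM, the NAT level was 1.19 times the P7C3-A20 level and 1.08 times the DMSO level, and the P7C3-A20 level was 0.905 times the DMSO level.

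The Grm5 difference between the compounds depended on the test. With voom on the recovered reads (7293 to 7364 per NAT library and 6734 to 8625 per P7C3-A20 library) it was 0.24 with an adjusted p of 0.00679, and with each library's GC trend removed as well it was 0.17 with an adjusted p of 0.0348. The adjusted p ranged from 0.0025 to 0.448 over 22 alternatives. The longest Grm5 transcript has 42.5% GC, below the 49.7% of the median tested gene, and P7C3-A20 replicate 3, with the highest GC slope, had the lowest Grm5 level. Without that library the voom value was 0.17 with an adjusted p of 0.00493, while without NAT replicate 1 or 3 the voom adjusted p was 0.101 or 0.0743. The summed level of 12 markers of dividing cells ranged from 1269 to 1328 TPM in NAT and from 1065 to 1174 TPM in P7C3-A20 libraries, and 12 of 12 had a positive fold change for NAT against P7C3-A20. Of 10 astrocyte markers 8 were positive, with sums of 7002 to 7280 TPM in NAT and 6422 to 7095 TPM in P7C3-A20 libraries, and of 11 tested oligodendrocyte lineage markers none was, with sums of 3512 to 3660 TPM in NAT and 3679 to 4241 TPM in P7C3-A20 libraries over all 12. Most of the oligodendrocyte lineage sum is Olig1, and 54% of all genes were positive for NAT against P7C3-A20. The part of these markers in the Grm5 value was not tested.

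Grm3 had 75.6, 70.7 and 74.0 TPM in NAT libraries, 65.8, 69.3 and 62.9 TPM in P7C3-A20 libraries and 72.2, 72.1 and 66.45 TPM in DMSO libraries. The NAT libraries lay above the P7C3-A20 libraries, as for Grm5, and each compound overlapped with DMSO. The log2 fold change of NAT against P7C3-A20 was 0.15 ± 0.05 (interval 0.04 to 0.26, limma adjusted p = 0.216), and 0.12 with the GC trend removed (limma adjusted p = 0.351). The ratio of Grm5 to Grm3 was 2.49 ± 0.0512 in NAT, 2.32 ± 0.129 in P7C3-A20 and 2.41 ± 0.113 in DMSO libraries (SD, n = 3 each). The NAT ratios began at 2.455 and the P7C3-A20 ratios reached 2.432. The lowest, 2.179, was in P7C3-A20 replicate 3, the library with the highest GC slope. These ratios hold the Grm5 and Grm3 values above and are given without a test. Of the other metabotropic genes, Grm4 reached 3.73 ± 0.124 TPM with NAT, 4.27 ± 0.471 TPM with P7C3-A20 and 3.89 ± 0.935 TPM with DMSO, while Grm2, Grm6, Grm7 and Grm8 stayed at 7 reads or fewer in every library.

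Grik3, a lower-affinity kainate receptor subunit gene, had 17.6, 16.8 and 16.2 TPM in NAT libraries, 16.0, 15.95 and 17.6 TPM in P7C3-A20 libraries and 19.26, 19.35 and 18.1 TPM in DMSO libraries. Every library of either compound lay below every DMSO library, and the compounds overlapped with each other. The log2 fold change was -0.16 ± 0.06 for NAT against DMSO (interval -0.29 to -0.02, limma adjusted p = 0.387) and -0.18 ± 0.06 for P7C3-A20 against DMSO (interval -0.32 to -0.05, limma adjusted p = 0.209). NAT and P7C3-A20 differed by 0.03 (interval -0.11 to 0.17).

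The Grik3 value for P7C3-A20 against DMSO, which limma did not call, passed with voom on the recovered reads, at -0.21 with an adjusted p of 0.0442. Removing the GC trend before voom gave -0.26 and an adjusted p of 0.0326. Over 22 alternatives its adjusted p ranged from 0.00757 to 0.484 and its log2 fold change from -0.26 to -0.16. The voom call held without P7C3-A20 replicate 3 or DMSO replicate 3, and without P7C3-A20 replicates 1 and 2 and DMSO replicates 1 and 2 the voom adjusted p was 0.0771, 0.125, 0.234 and 0.189. For NAT against DMSO voom gave -0.19 with an adjusted p of 0.185, within a range of 0.112 to 0.680 over 16 alternatives. Of 10 neural stem cell markers 7 were negative for each compound against DMSO, and their sums were 18710 to 19140 TPM in NAT and 17750 to 18630 TPM in P7C3-A20 libraries, against 19370 to 19750 TPM in DMSO libraries. Most of the sum is Fabp7, and without it the sums overlapped, at 7393 to 7542 TPM in NAT, 7114 to 7544 TPM in P7C3-A20 and 7342 to 7497 TPM in DMSO libraries. Other marker lists shifted as well. For NAT against DMSO, 10 of 10 astrocyte markers and 12 of 12 markers of dividing cells were positive. Of 11 tested oligodendrocyte lineage markers 10 were negative, and of 12 tested neuronal markers 9 were. For P7C3-A20 against DMSO, 7 of 10 astrocyte markers were positive, and the other lists are given with Grin1 below. Of all genes 63.5% were positive for NAT and 55.2% for P7C3-A20, each against DMSO. The part of any of these markers in the Grik3 values was not tested.

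**Figure D3:**
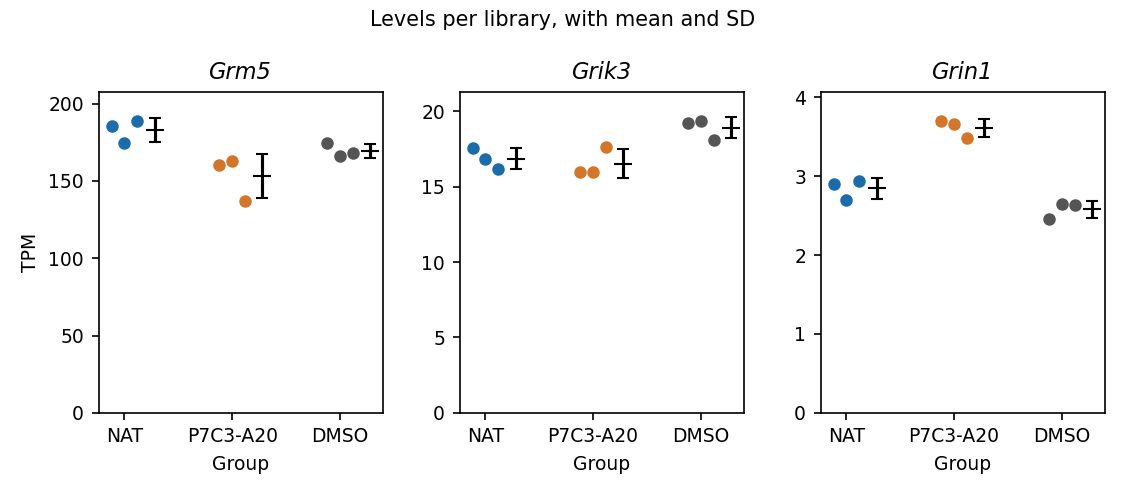
TPM per library (points, replicates 1 to 3 from left to right) for Grm5, Grik3 and Grin1 in the 3 groups, with the mean and SD (n = 3) beside the points, on axes that start at 0. Grik3 is lower in both compound groups than with DMSO, and Grin1 is highest in the P7C3-A20 libraries, at 3.49 to 3.70 TPM.

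The other kainate receptor genes were not called in any comparison under any of the alternatives run. Grik5 had 101.2, 112.6 and 111.4 TPM in NAT libraries, 109.4, 114.5 and 126.3 TPM in P7C3-A20 libraries and 93.5, 102.3 and 113.0 TPM in DMSO libraries. All 3 groups overlapped, and the log2 fold change of P7C3-A20 against DMSO was 0.18 ± 0.07 (interval 0.02 to 0.34, limma adjusted p = 0.263). Its longest transcript has 61.7% GC, the highest among the members, and its highest level was in P7C3-A20 replicate 3, the library with the highest GC slope. With the GC trend removed the value was 0.07 (limma adjusted p = 0.605), and with a library left out it ranged from 0.12 without DMSO replicate 1 to 0.25 without DMSO replicate 3. For NAT against DMSO it was 0.08 ± 0.07 (limma adjusted p = 0.713), with 0.01 and 0.14 without the same libraries.

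Grik2, whose subunit GluK2 can form channels alone, had 31.5, 27.7 and 30.2 TPM in NAT libraries, 27.35, 29.85 and 27.2 TPM in P7C3-A20 libraries and 29.9, 30.75 and 29.9 TPM in DMSO libraries. The P7C3-A20 libraries lay below the DMSO libraries by a narrow gap, with a log2 fold change of -0.10 ± 0.06 (limma adjusted p = 0.424). The longest Grik2 transcript has the lowest GC content among the members, 37.9%, and the value with the GC trend removed was -0.04 (limma adjusted p = 0.821). Relative to Grin1, the length behind the Grik2 TPM was 1.15, against 2.205 for that transcript. The GC content of the sequence counted is therefore not known. Grik4 ranged from 12.7 to 17.2 TPM in NAT, 14.6 to 18.1 TPM in P7C3-A20 and 14.7 to 16.1 TPM in DMSO libraries, and Grik1 from 3.34 to 4.40, 3.32 to 3.98 and 3.83 to 4.38 TPM in the same order. For both genes all groups overlapped, and the largest of their log2 fold changes was -0.18 for Grik4, NAT against P7C3-A20 (interval -0.42 to 0.06, limma adjusted p = 0.435). That value was -0.10 without NAT replicate 1, -0.31 without NAT replicate 2 and -0.12 without P7C3-A20 replicate 3.

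The summed level of the 5 kainate receptor genes was 173.5 ± 5.92 TPM with NAT, 181.6 ± 11.2 TPM with P7C3-A20 and 171.3 ± 9.61 TPM with DMSO (SD, n = 3 each). Grik5 alone made up 62.45 ± 1.70% of it with NAT, 64.3 ± 1.05% with P7C3-A20 and 60.01 ± 2.32% with DMSO. Together with Grik4, the higher-affinity subunits accounted for 70.8 ± 2.36% with NAT, 73.3 ± 1.24% with P7C3-A20 and 68.9 ± 2.24% with DMSO. The share of Grik3 was 9.74 ± 0.691% with NAT, 9.11 ± 0.275% with P7C3-A20 and 11.1 ± 0.970% with DMSO. These shares hold the Grik5 and Grik3 values above and are given without a test. They also depend on the gene lengths behind the TPM, those of Grik2 and Grik4 among them. Of the auxiliary subunit genes of kainate receptors, Neto1 was at 49.8 ± 2.93 TPM with NAT, 46.05 ± 4.75 TPM with P7C3-A20 and 47.5 ± 2.81 TPM with DMSO. Neto2 was at 94.9 ± 3.03 TPM with NAT, 84.2 ± 5.49 TPM with P7C3-A20 and 89.2 ± 5.15 TPM with DMSO, and had a log2 fold change of 0.17 ± 0.06 for NAT against P7C3-A20 (limma adjusted p = 0.215).

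**Figure D4:**
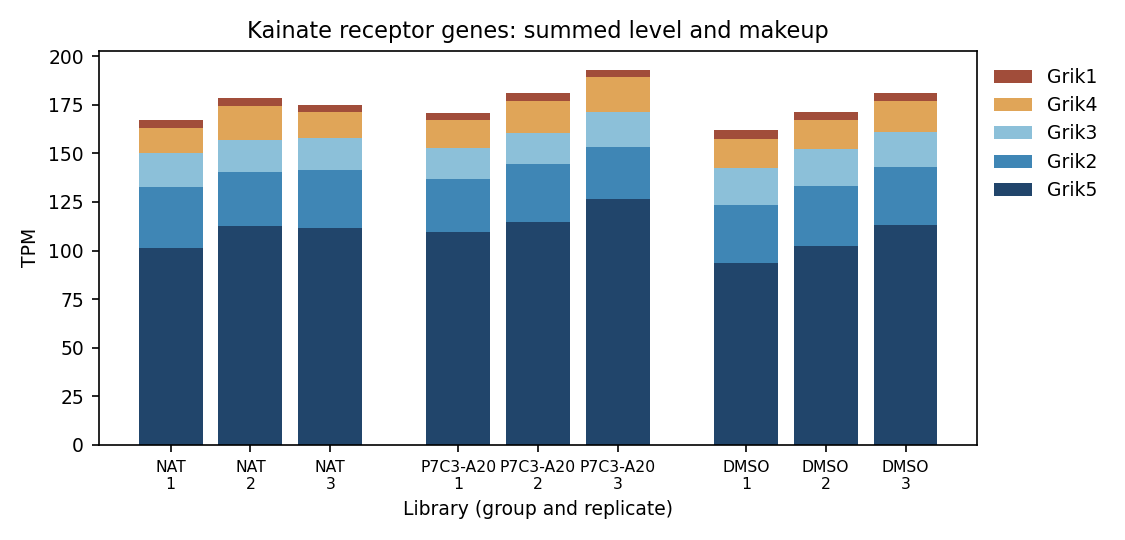
Summed TPM of the 5 kainate receptor genes in each library, stacked by gene (dark blue at the base is Grik5). Grik5 is the largest part in all 9 libraries, with 57.8% to 62.4% of the sum in the DMSO libraries.

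Grin1, whose subunit every NMDA receptor contains, had 2.90, 2.70 and 2.94 TPM in NAT libraries, 3.70, 3.65 and 3.49 TPM in P7C3-A20 libraries and 2.46, 2.65 and 2.63 TPM in DMSO libraries. Behind these values stood 170, 271 and 152 reads summed over the NAT, P7C3-A20 and DMSO libraries. The P7C3-A20 libraries lay above all others, and the NAT libraries lay above the DMSO libraries by a narrow gap. The mean was 1.40 times as high with P7C3-A20 as with DMSO, with a log2 fold change on the TPM + 1 scale of 0.37 ± 0.10 (interval 0.14 to 0.59, limma adjusted p = 0.172), rank 376 by p. NAT against P7C3-A20 gave -0.26 ± 0.10 (interval -0.49 to -0.03, limma adjusted p = 0.267), and NAT against DMSO 0.10 ± 0.10 (limma adjusted p = 0.724). The longest Grin1 transcript has 59.4% GC, and with the GC trend removed P7C3-A20 against DMSO was 0.26 (limma adjusted p = 0.394). Voom on the reads gave 0.46 with an adjusted p of 0.0794, the lowest over 15 alternatives, whose highest was 0.427, and none called Grin1. For P7C3-A20 against DMSO, 10 of 11 tested oligodendrocyte lineage markers were positive, with sums over all 12 of 3679 to 4241 TPM in P7C3-A20 and 3673 to 3832 TPM in DMSO libraries. Of 12 tested neuronal markers 6 were positive, with sums over all 14 of 928.5 to 998.3 TPM in P7C3-A20 and 985.9 to 1018 TPM in DMSO libraries. Of 12 markers of dividing cells 9 were negative, with sums of 1065 to 1174 TPM in P7C3-A20 and 1107 to 1316 TPM in DMSO libraries, and voom called Cenpf, Mki67 and Nusap1 lower. Most of the neuronal sum is Map2 and most of the oligodendrocyte lineage sum is Olig1. Of all genes 55.2% were positive for P7C3-A20 against DMSO. The part of these markers in the P7C3-A20 values of Grin1, Grik3 and Grm5 against DMSO was not tested.

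**Figure D5:**
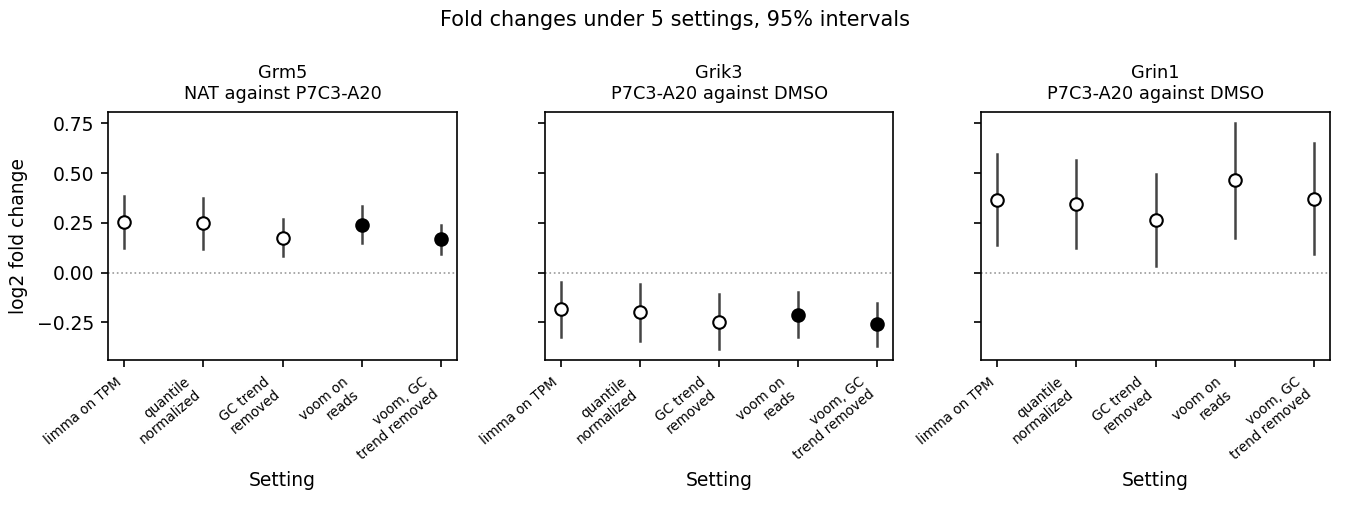
Log2 fold changes (points) with 95% intervals (lines) for Grm5, Grik3 and Grin1 under 5 settings; filled points have an adjusted p below 0.05. The limma settings use TPM + 1 and the voom settings use reads, and only the voom values of Grm5 and Grik3 are filled.

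Grin2b, the GluN2 subunit gene known for early development, had 0.459, 0.597 and 0.640 TPM in NAT libraries, 0.370, 0.386 and 0.416 TPM in P7C3-A20 libraries and 0.346, 0.374 and 0.424 TPM in DMSO libraries. These values rest on 30 reads over the NAT, 26 over the P7C3-A20 and 20 over the DMSO libraries, with exact Poisson 95% intervals of 20.2 to 42.8, 17.0 to 38.1 and 12.2 to 30.9 reads, which cover counting error only. Grin2a, the GluN2 subunit gene known for later stages, rested on 14 reads with NAT (7.65 to 23.5), 16 with P7C3-A20 (9.14 to 26.0) and 10 with DMSO (4.79 to 18.4). In TPM the 3 NAT values of Grin2b lay above all others, while those of Grin2a overlapped between all groups. The unscaled reads of Grin2b overlapped, with 8, 11 and 11 in NAT replicates 1, 2 and 3. The P7C3-A20 replicates had 8, 9 and 9 reads and the DMSO replicates 6, 6 and 8. The P7C3-A20 libraries were deeper, with 15885313 to 17217584 reads in all, against 12994081 to 13803959 in NAT libraries. Neither these reads nor the Poisson intervals are scaled for depth. The shares of all genes without overlap given above cover tested genes only, and Grin2b was not among them. With no filter on low values, Grin2b gave a log2 fold change of 0.18 for NAT against DMSO (interval 0.02 to 0.34, limma unadjusted p = 0.0293, adjusted p = 0.460) and 0.17 for NAT against P7C3-A20 (interval 0.01 to 0.33, limma unadjusted p = 0.0373, adjusted p = 0.366). For Grin2a the same fit gave 0.07 for NAT (limma adjusted p = 0.791) and 0.04 for P7C3-A20 (limma adjusted p = 0.850) against DMSO.

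Of the remaining NMDA receptor genes, Grin3a was the most abundant. This gene of the GluN3A subunit, which binds glycine and lowers calcium entry, stood at 43.7 ± 0.997 TPM with NAT, 39.3 ± 1.56 TPM with P7C3-A20 and 40.75 ± 1.26 TPM with DMSO (SD, n = 3 each). It made up 87.1 ± 1.75% of the summed TPM of the 7 NMDA receptor genes with NAT, 84.4 ± 0.805% with P7C3-A20 and 87.4 ± 1.44% with DMSO. Its level was 15.4 ± 0.654 times that of Grin1 with NAT, 10.9 ± 0.137 times with P7C3-A20 and 15.8 ± 1.17 times with DMSO. The P7C3-A20 ratios of 10.8 to 11.04 lay below those of the other groups, which began at 14.7 with NAT and 15.0 with DMSO. These ratios hold the Grin1 values above, which were not called, are not adjusted for the GC trend and are given without a test. The log2 fold change of Grin3a was 0.15 ± 0.04 for NAT against P7C3-A20 (limma adjusted p = 0.206). Grin2c, Grin2d and Grin3b averaged 0.857 to 1.09 TPM in the 3 groups.

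Of the 12 receptor genes outside the 10, which comprise the other NMDA and metabotropic subunits and the delta receptors, 8 were tested and none was called in any comparison by limma or by voom. At an unadjusted limma p under 0.05, 1 was higher and none lower in each comparison. This was Grid1 for each compound against DMSO and Grin3a for NAT against P7C3-A20. Of all genes, 8.67% were higher and 3% lower for NAT against DMSO, and 10.7% and 5.12% for P7C3-A20 against DMSO. Between the compounds 9.92% were higher and 5.89% lower. Grid1, a delta receptor gene, was at 40.2 ± 1.71 TPM with NAT, 40.4 ± 1.86 TPM with P7C3-A20 and 36.55 ± 0.746 TPM with DMSO, and the log2 fold changes against DMSO were 0.13 ± 0.05 with NAT and 0.14 ± 0.05 with P7C3-A20 (limma adjusted p = 0.349 and 0.218). For these 8 other receptor genes the median log2 fold change was 0.003 with NAT and 0.049 with P7C3-A20 against DMSO. It was -0.039 between the compounds. Of the 10 members, the 8 tested had a median of 0.02 with NAT against DMSO (0.03 for all genes). The members' median was -0.09 with P7C3-A20 against DMSO (0.01 for all genes) and 0.05 between the compounds (0.01 for all genes).

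Genes of receptor scaffolds, signalling and agonist supply gave no call by limma either. Of 31 tested auxiliary and scaffold genes, none passed limma's adjusted threshold in any comparison. An unadjusted p under 0.05 was reached by 1 with NAT and 6 with P7C3-A20, each against DMSO, and by 5 between the compounds, where the shares of all genes were 11.7%, 15.9% and 15.8%. Voom called 0, 1 and 1 in the same order, both times Cdk5, out of 28, 248 and 322 genes in all. Dlg4, which encodes the postsynaptic scaffold PSD-95 that anchors NMDA receptors, was at 72.8 TPM with NAT, 73.1 TPM with P7C3-A20 and 64.7 TPM with DMSO, with log2 fold changes of 0.17 ± 0.04 for NAT (limma adjusted p = 0.256) and 0.17 ± 0.04 for P7C3-A20 (limma adjusted p = 0.158) against DMSO, and neither compound overlapped with DMSO. The cyclin-dependent kinase gene Cdk5, whose product phosphorylates GluN2 subunits, was at 85.2 TPM with NAT, 100.5 TPM with P7C3-A20 and 85.98 TPM with DMSO. Its log2 fold change was 0.22 ± 0.05 for P7C3-A20 against DMSO (limma adjusted p = 0.140). For NAT against P7C3-A20 it was -0.235 ± 0.047 (limma adjusted p = 0.168), rank 25 by p. Grasp, which encodes a scaffold protein that binds metabotropic glutamate receptors, was at 6.30 TPM with NAT and 7.64 TPM with DMSO (-0.25 ± 0.12, limma adjusted p = 0.436).

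Of 27 tested downstream signalling genes, none was called by limma. An unadjusted p under 0.05 was reached by 6 with NAT and 9 with P7C3-A20, each against DMSO, and by 4 between the compounds, where the shares of all genes were 11.7%, 15.9% and 15.8%. Voom called 0, 2 (Camk2b higher, Creb1 lower) and 1 (Plcb3 lower) of those totals. Camk2b, a calcium/calmodulin kinase subunit gene, was at 93.4 TPM with NAT, 95.6 TPM with P7C3-A20 and 83.7 TPM with DMSO. Its log2 fold change against DMSO was 0.16 ± 0.03 for NAT (limma adjusted p = 0.210). For P7C3-A20 against DMSO it was 0.19 ± 0.03 (limma adjusted p = 0.140), rank 8 by p. Ppp3ca, a calcineurin catalytic subunit gene, was at 240.5 TPM with NAT and 220.2 TPM with DMSO (0.13 ± 0.03, limma adjusted p = 0.210). Another calcium/calmodulin kinase subunit gene, Camk2g, was at 103.8 TPM with P7C3-A20 and 92.9 TPM with DMSO (0.16 ± 0.04, limma adjusted p = 0.158). Plcb3, a phospholipase C gene of the Gq pathway, was at 59.7 TPM in NAT and 66.4 TPM in P7C3-A20 libraries (-0.15 ± 0.04, limma adjusted p = 0.197). Prkca, a protein kinase C gene, was at 64.1 TPM in NAT and 58.5 TPM in P7C3-A20 libraries (0.13 ± 0.04, limma adjusted p = 0.206).

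Of 18 tested genes of agonist and co-agonist supply, none was called by limma. An unadjusted p under 0.05 was reached by 7 with NAT and 4 with P7C3-A20, each against DMSO, and by 2 between the compounds, where the shares of all genes were 11.7%, 15.9% and 15.8%. Voom called 0, 1 (Slc6a9 higher) and 0 of the same totals. Slc6a9, the gene of the glycine transporter GlyT1, was at 164.5 TPM with NAT, 169.9 TPM with P7C3-A20 and 148.0 TPM with DMSO, with log2 fold changes of 0.15 ± 0.05 for NAT (limma adjusted p = 0.319) and 0.20 ± 0.05 for P7C3-A20 (limma adjusted p = 0.158) against DMSO. Slc7a10, whose product carries D-serine and other small amino acids, was at 6.10 TPM with NAT, 7.78 TPM with P7C3-A20 and 7.64 TPM with DMSO, and NAT against P7C3-A20 gave -0.31 ± 0.10 (limma adjusted p = 0.215). The serine hydroxymethyltransferase gene Shmt1 was at 18.1 TPM in NAT and 14.3 TPM in P7C3-A20 libraries (0.31 ± 0.09, limma adjusted p = 0.195). Shmt2, its mitochondrial counterpart, was at 81.3 TPM with P7C3-A20 and 73.2 TPM with DMSO (0.15 ± 0.04, limma adjusted p = 0.154).

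The genes whose levels ran most like those of the most abundant member of each class were found by Pearson correlation of log2(TPM + 1) over the 9 libraries, among genes of at least 10 TPM. For Grm5 they were Pds5a, Ascc3 and 2810407C02Rik (r = 0.982, 0.980 and 0.980), for Grik5 Rab11fip3, Mtss1l and Ddr1 (r = 0.986, 0.976 and 0.975) and for Grin1 C1ql1, Abhd12 and 1810010H24Rik (r = 0.964, 0.943 and 0.940). An r of at least 0.9 was reached by 361 of 10023 genes searched for Grm5, 174 of 10023 for Grik5 and 20 of 10024 for Grin1. The libraries share differences in depth and in the GC trend, so these values describe the 9 libraries only.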

How the data were processed

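RNA of 9 libraries was sequenced with a TruSeq RNA preparation, as the labels' protocols say. No source states that it keeps the strand, and a gene's reads may then include those of a gene on the opposite strand. The authors deposited TPM values for 23420 genes, scaled to the same total in each library. Bowtie 0.12.2 and the builds mm8 and mm9 are named, without a role, per the submitters' processing notes; which counter and annotation were applied is not given in the sources used here.

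Whole reads were recovered from the TPM steps for 19302 of 19302 genes with a value (100%, tolerance 0.001) and entered only the voom alternatives, with median-of-ratios library sizes. As TPM are not counts, the main test was limma 3.58.1 (R 4.3.3) with a trend on log2(TPM + 1), all 9 libraries in 1 fit with the group as factor (6 residual degrees of freedom), two-sided, 13839 genes, called below an adjusted p of 0.05. Errors are SDs of TPM or the fit's SEs. GC content was that of the longest GENCODE M21 transcript, which need not be the sequence behind the TPM, as the lengths of Grik2, Grik4, Grin2a and Grin2b show. GC trends were splines with 5 degrees of freedom. Scripts were tested on simulated data. Python 3.11.15 made the plots with matplotlib 3.10.9.

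The members, lists and alternatives were chosen with earlier results of these data known. Named genes were the 10 members, the genes of lowest p in each list (2 per comparison), the 3 genes most like the most abundant member of a class, and markers by level; a gene that this rule also names is not reported here. Alternatives were another pseudocount, other filters, quantile normalization, the GC trend, voom, a replicate block, robust empirical Bayes, leaving out each library in turn, and the 6 compared libraries. Voom without each library for Grik3 and Grm5, and the voom counts per list, were chosen after seeing the data.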

Additional observations from a re-analysis of the deposited data

How the results depend on the processing

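Over the alternatives, 390 values were recomputed for the 24 member results, of which 373 kept their direction and side of the threshold, 10 passed it (all with voom, for Grm5 in NAT against P7C3-A20 and Grik3 in P7C3-A20 against DMSO) and 7 changed sign. The values that changed sign were small: for NAT against DMSO, Grik4 at 0.006 without NAT replicate 1, Grik2 at 0.030 without NAT replicate 2 and Grik1 at 0.070 without NAT replicate 3 and 0.023 without DMSO replicate 1 (ranges with a library left out of -0.201 to 0.006, -0.060 to 0.030 and -0.087 to 0.070); for NAT against P7C3-A20, Grik2 at -0.008 with the GC trend removed and -0.027 with voom and the GC trend removed, and Grik3 at -0.001 without NAT replicate 1 (range -0.001 to 0.073). The count of members called was 0 in every comparison and became 1 with P7C3-A20 against DMSO (Grik3) and 1 between the compounds (Grm5) with voom, with or without the GC trend. The cause was not tested.

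The count of all genes called for NAT against DMSO was 4, and 1 with a pseudocount of 0.1, 2 with a minimum of 5 TPM, 8 with the 6 compared libraries, 28 with voom, 53 with voom and the GC trend removed, and 0 to 8 with a library left out. For P7C3-A20 against DMSO it was 3, and 7 with the replicate block, 0 with a pseudocount of 0.1, 0 with a minimum of 5 TPM, 5 with the 6 compared libraries, 248 with voom, 35 with voom and the GC trend removed, and 1 to 4 with a library left out. For NAT against P7C3-A20 it was 0 (2188 genes had an unadjusted limma p under 0.05), and 1 with the replicate block, 5 with the 6 compared libraries, 322 with voom, 62 with voom and the GC trend removed, and 0 to 1 with a library left out.

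The libraries share replicate numbers without a stated pairing. Same-numbered libraries of different groups deviated from their group means with correlations of -0.062 to 0.067, and NAT replicate 2 correlated most with DMSO replicate 3 (0.099), so the numbers were not taken to pair them. With the replicate block no member was called. Read numbers limit Grin2a and Grin2b (2 to 11 per library), while for Grm5 they leave little counting error.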
